A study of Mus musculus with 12 samples.

Results

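The response of nmMLCK-/- mouse lung to 4 h of high-tidal mechanical ventilation was read from 6 of the 12 arrays of the series, chosen by their labels alone. Of these, 3 arrays held lungs of nmMLCK-/- animals with ventilator-induced lung injury (VILI) and 3 held lungs of nmMLCK-/- animals that breathed spontaneously (SB). The name nmMLCK stands for the non-muscle, long isoform of myosin light chain kinase, a product of the gene Mylk, and nmMLCK-/- animals are called knockout here. The other 6 arrays, 3 wild-type VILI and 3 wild-type SB lungs, served for the common estimate of spread and for the comparison of responses. The labels give male C57BL/6 mice aged 8 to 12 weeks throughout, and total RNA of each lung was hybridised to an Affymetrix mouse array of its own. VILI animals were ventilated for 4 h at 65 breaths per min with an end-expiratory pressure of 0 cm H2O. Sample labels state a tidal volume of 40 ml/kg, whereas the design text of the series states 30 ml/kg. A low-tidal group was not part of the design, so the volume and the ventilation procedure as a whole cannot be told apart. How the null allele was made, and whether the animals of the 2 genotypes were littermates, is not stated in the labels.

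Ventilation with large breaths stretches the alveolar wall, opens endothelial and epithelial junctions and starts an inflammatory reaction in which neutrophils enter the lung. In endothelial cells the non-muscle kinase phosphorylates the regulatory light chain of myosin, which drives actomyosin contraction and the opening of gaps between cells. It is therefore known as a regulator of vascular leak, and loss of the isoform leaves the short, smooth muscle isoform of the same gene in place.

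Values are the authors' log2 signals, and each gene is represented by its named probe set with the highest mean. Mean log2 signals under 3.056, the 40th percentile of all probe sets, were not tested. The array medians of the 6 knockout arrays lay between 4.94 and 5.04. Lung epithelial markers were near the top of the scale, with Sftpc at 15.80, 15.76 and 15.72 in knockout VILI lungs and 15.75, 15.77 and 15.76 in knockout SB lungs. Across all 45037 probe sets, knockout VILI arrays correlated with each other at 0.9939 to 0.9979 and knockout SB arrays at 0.9911 to 0.9953, and pairs with 1 array of each at 0.9806 to 0.9923. A principal component with 64.8% of the variance of the knockout arrays set VILI apart from SB. Individual arrays are written by genotype (KO for knockout, WT for wild type), group and replicate number, as in KO SB 2. KO SB 2 stood apart from the other two knockout SB arrays on this component, at 48.21 against 19.48 and 22.91, and lay furthest from the VILI arrays. It also stood apart on the second component, at 23.51 against -25.57 and -10.49. The labels describe the 3 samples of a group as separate animals and give no batch, so p-values measure the spread between animals and whatever varied with them. In whole lung, fewer cells of a type and less RNA per cell cannot be told apart.

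Mylk was read by 3 probe sets, and the isoform that each one reads is not stated. The brightest probe set on average had log2 signals of 12.68, 12.77 and 12.71 in knockout VILI lungs and 12.83, 12.80 and 12.71 in knockout SB lungs. Another had 12.70, 12.75 and 12.47 in knockout VILI lungs and 12.50, 11.69 and 12.17 in knockout SB lungs. None of the 3 passed the test for a response to ventilation, with unadjusted p of 0.271 and 0.0785 for these and 0.727 for the dimmest. High signals in knockout lungs do not test the genotype, because the smooth muscle isoform is a product of the same gene.

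Of 12309 genes tested, 2554 (20.7%) had an adjusted p under 0.05 in knockout VILI against knockout SB lungs, and such genes are said here to have risen or fallen. There were 999 rises (8.12%) and 1555 falls (12.6%), and these shares are the background for the counts of gene lists below. The median difference of all genes was -0.05 on the log2 scale, with a middle range of -0.32 to 0.18. Of the called genes, 573 changed at least 2-fold, 257 upward and 316 downward. In 5387 genes (43.8%) the 3 knockout VILI values did not overlap the 3 knockout SB values, and this held for 2540 of the 2554 called genes. The number of calls varied with the arrays included: 1011 genes kept their call when each of the 12 arrays was left out in turn, and 1543 lost it in at least 1 of these fits. Leaving out a knockout array also leaves fewer arrays in its group, which lowers precision. The part of that in the lost calls was not tested. Leaving out KO SB 2 gave 1308 calls. Leaving out replicates 1, 2 or 3 of the knockout VILI group gave 1553, 1232 or 1647, and leaving out the third wild-type SB array gave 3301. Of the called genes 1238 had several probe sets past the filter, and in 324 of these the probe sets differed in sign. Where a gene named for its response lost its call with the probe set of lowest mean in place of the highest, that adjusted p is given. For Cldn5, Lcn2 and Nr3c1 this comparison is not given. The genes described below kept their call in all 12 fits unless a value without an array is given beside them. Differences are given on the log2 scale, from 3 arrays per group. Their standard errors come from limma, which estimates a gene's spread over all 12 arrays and draws it toward that of other genes. They can therefore differ from the spread of the knockout values printed beside them.

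The largest measured rise was that of Mmp8, a collagenase stored in neutrophil granules. Its log2 signals were 10.21, 9.78 and 10.71 in knockout VILI lungs, against 4.98, 2.79 and 5.03 in knockout SB lungs, a difference of 5.97 ± 0.79 or 62.7-fold (adjusted p = 0.00151). Il1r2, the decoy receptor that binds interleukin 1 without signalling, had 9.25, 8.57 and 10.38 in knockout VILI lungs, against 5.03, 1.76 and 3.74 in knockout SB lungs. Il1r2 rose by 5.89 ± 0.83 (adjusted p = 0.00197), and SB replicate 2 was the lowest array for both genes. Slfn4, a Schlafen family gene of myeloid cells, had 10.17, 9.61 and 10.54 in knockout VILI lungs, against 5.09, 4.05 and 4.27 in knockout SB lungs, a rise of 5.64 ± 1.23 (adjusted p = 0.0121). The next rises by size were those of Cldn4, Krtap17-1, Apold1, Clec4d, Stfa2l1, Prss22, Nfil3, Slfn1 and Dio2, from 5.63 for Cldn4 to 3.64 for Dio2. Of these 12 genes, Cldn4 alone lost its call in fits with an array left out, as described with the epithelial genes. The lowest-mean probe set of Dio2 differed by 0.19 (adjusted p = 0.769).

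Among the falls, Ankrd63, an ankyrin repeat gene, had log2 signals of 3.50, 4.27 and 5.59 in knockout VILI lungs, against 8.41, 8.40 and 7.63 in knockout SB lungs, a change of -3.69 ± 0.64 (adjusted p = 0.00495). Zfp467, a zinc finger gene, had 4.57, 4.40 and 6.16 in knockout VILI lungs, against 8.19, 9.16 and 8.03 in knockout SB lungs, a change of -3.42 ± 0.58 (adjusted p = 0.0043). The other ten large falls ran from -2.71 for Hspa1b to -2.27 for Fam13a and included Tekt4, Hspa1a, Smim5, Tppp, Klhdc1, L3hypdh, Rfxank and Dbp. Without KO VILI 2 the adjusted p of Smim5 was 0.0532. That of Rfxank was 0.0506 or 0.0588 without KO VILI 1 or 2, and 0.0657 when the second knockout SB array was left out.

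**Figure D1:**
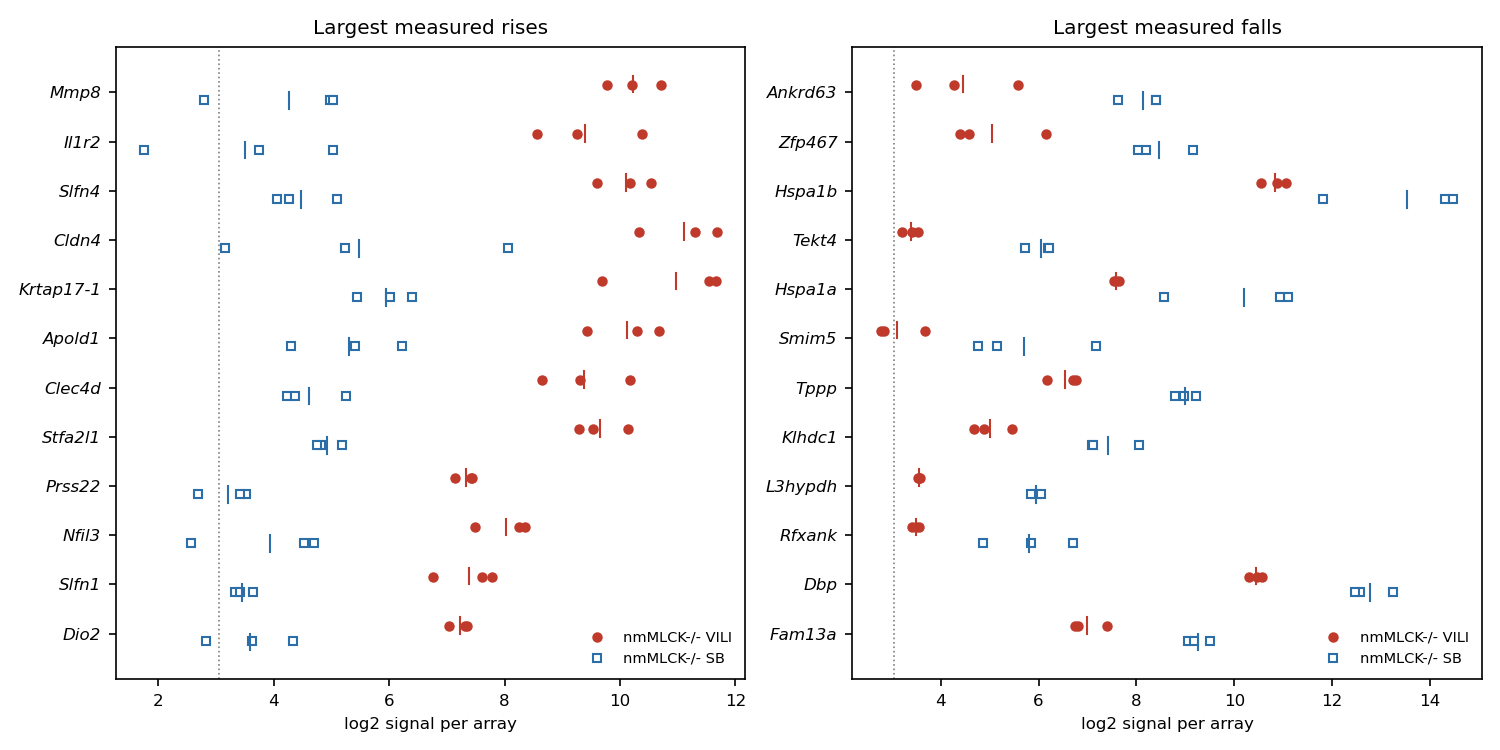
Log2 signal on each knockout array for the 12 largest rises and the 12 largest falls, with circles for the 3 VILI arrays, squares for the 3 SB arrays, short lines for group means and a dotted line at the filter level of 3.056. Mmp8 lies between 9.78 and 10.71 in VILI lungs and between 2.79 and 5.03 in SB lungs, and Ankrd63 between 3.50 and 5.59 in VILI lungs and between 7.63 and 8.41 in SB lungs.

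The genes with the smallest p had moderate but very even changes. Pdlim7, which encodes a PDZ and LIM domain protein of the actin cytoskeleton, had 11.36, 11.41 and 11.50 in knockout VILI lungs, against 9.90, 9.77 and 9.80 in knockout SB lungs, a rise of 1.60 ± 0.09 or 3.03-fold (adjusted p = 2.79e-05). Akap12, a scaffold for protein kinases A and C, rose by 1.70 ± 0.11 and Iffo2 by 2.58 ± 0.20. Bcl3, a nuclear partner of NF-kB subunits, rose by 2.23 ± 0.15, Fstl3, which binds activins, by 1.32 ± 0.09, and Litaf by 1.23 ± 0.09. On the falling side stood Tmem100, an endothelial membrane protein, with 13.44, 13.47 and 13.44 in knockout VILI lungs and 14.55, 14.61 and 14.61 in knockout SB lungs (-1.14 ± 0.07, adjusted p = 5.78e-05). Fgd5, an exchange factor of endothelial cells, changed by -1.08 ± 0.08, She by -1.30 ± 0.10, Akip1 by -0.95 ± 0.08, Nicn1 by -1.39 ± 0.12 and Adgre5 by -1.28 ± 0.11. With the lowest-mean probe sets, the adjusted p of Litaf was 0.102 and that of Nicn1 0.0794.

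Promoter letters are shown here for 4 genes with large rises, chosen after their values were seen, as examples of elements whose shares over all promoters follow. All are 250 bases that end at the base before the RefSeq transcription start site of the GRCm38.p6 assembly, read on the strand of the gene, with capitals at the matched element on either strand. For Dio2 (chr12:90739039-90739288, minus strand) and Has1 (chr17:17855189-17855438, minus strand) the capitals mark the cyclic AMP response element TGACGTCA, which begins at -95 and -83 from the start site. For Cldn4 (chr5:134946935-134947184, minus strand) and Slfn4 (chr11:83174936-83175185, plus strand) they mark the AP-1 element TGANTCA, which begins at -240 in Cldn4, with another match nearer the start site, and at -34 in Slfn4.
Dio2: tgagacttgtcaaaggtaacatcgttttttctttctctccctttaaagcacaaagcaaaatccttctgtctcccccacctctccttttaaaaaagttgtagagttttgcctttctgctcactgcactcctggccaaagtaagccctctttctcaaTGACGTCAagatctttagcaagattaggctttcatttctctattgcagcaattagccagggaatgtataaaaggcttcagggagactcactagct
Has1: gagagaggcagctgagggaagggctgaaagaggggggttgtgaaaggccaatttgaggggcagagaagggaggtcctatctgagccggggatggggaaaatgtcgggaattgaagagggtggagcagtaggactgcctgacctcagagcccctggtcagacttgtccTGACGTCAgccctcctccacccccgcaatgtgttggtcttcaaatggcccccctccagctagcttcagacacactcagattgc
Cldn4: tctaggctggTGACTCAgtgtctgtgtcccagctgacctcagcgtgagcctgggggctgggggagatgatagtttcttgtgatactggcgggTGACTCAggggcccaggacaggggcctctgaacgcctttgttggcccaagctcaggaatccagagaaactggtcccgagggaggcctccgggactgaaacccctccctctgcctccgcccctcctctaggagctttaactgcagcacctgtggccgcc
Slfn4: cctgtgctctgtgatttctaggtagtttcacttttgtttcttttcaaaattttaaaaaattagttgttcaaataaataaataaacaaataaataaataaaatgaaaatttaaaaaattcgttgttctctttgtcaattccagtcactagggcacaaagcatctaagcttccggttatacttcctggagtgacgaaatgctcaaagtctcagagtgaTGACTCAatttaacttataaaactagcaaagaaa

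Of the genes tested, 9912 matched a promoter in the RefSeq table. The cyclic AMP element TGACGTCA, on either strand, was present in 30 of 801 promoters of genes that rose (3.75%), 30 of 1268 of genes that fell (2.37%) and 259 of all 9912 (2.61%). The AP-1 element TGANTCA was present in 5.24% of promoters of genes that rose, 4.1% of those that fell and 4.44% of all. The E-box CACGTG was present in 8.74%, 6.39% and 8.42% of the same sets, and the short NF-kB pattern of GGG and CC with 5 bases between them, which most promoters hold, in 66.8%, 60.5% and 61.1%. The heat shock element, searched as GAA, TTC and GAA blocks with 2 bases between neighbours, was present in 30 promoters in all, 3 of genes that rose and 6 of genes that fell. The D-box, C/EBP, STAT and metal response elements are not shown, and the letters of the AP-1 and cyclic AMP elements cannot match at the same position. A match describes these windows only, and no test was made of the shares.

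Neutrophil genes were the list with the highest median. Of 17 tested granule and surface markers, 11 rose and 0 fell, with a median of 1.23, and 7 of the 11 kept the call in all 12 fits. The count was 7 without KO SB 2, KO VILI 1 or KO VILI 3. S100a8 and S100a9 encode the subunits of calprotectin, the main cytosolic protein of neutrophils. S100a8 had log2 signals of 14.79, 14.33 and 15.00 in knockout VILI lungs, against 11.34, 11.26 and 11.72 in knockout SB lungs, a rise of 3.27 ± 0.54 (adjusted p = 0.00396). S100a9 rose by 3.60 ± 0.62 and Cxcr2, the receptor through which neutrophils follow CXC chemokines, by 2.39 ± 0.52. Padi4, which citrullinates histones, rose by 1.95 ± 0.33 and Cd177, a neutrophil surface antigen, by 1.23 ± 0.18. Replicate 2 had the lowest S100a8, S100a9, Mmp8, Cxcr2, Padi4 and Cd177 values of the knockout VILI arrays. Ngp, a granule protein made in immature neutrophils, was not called, with 5.95, 4.61 and 8.24 in knockout VILI lungs and 4.11, 4.12 and 4.20 in knockout SB lungs (2.12 ± 0.86, adjusted p = 0.103).

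Among 15 tested myeloid lectin and Trem family receptors, 6 rose, 0 fell and 9 were not called, 4 of the 15 with a negative difference, and the median was 1.05. Clec4d, a C-type lectin that recognises mycobacterial glycolipid, had 9.31, 8.65 and 10.18 in knockout VILI lungs, against 5.25, 4.22 and 4.36 in knockout SB lungs, a rise of 4.77 ± 0.71 (adjusted p = 0.00245). Trem1, which amplifies Toll-like receptor signals, rose by 2.85 ± 0.51 and Cd300lf by 2.40 ± 0.32. Clec4e, the partner lectin of Clec4d, had 6.56, 5.27 and 7.08 in knockout VILI lungs, against 1.92, 1.94 and 2.02 in knockout SB lungs, where its mean lay under the filter level, so no size is given. The same holds for Rdh12, 9230110K08Rik, Cd33, Cxcl2 and Trpm2, which also rose over SB means under that level. The neutrophil chemokine Cxcl2 had signals of 5.15, 2.75 and 6.17 in knockout VILI lungs, and its adjusted p of 0.0426 lay between 0.0519 and 0.123 in 10 of the 12 fits with an array left out, all but those without KO VILI 2 or WT SB 3. In the Schlafen family 2 of 7 tested genes rose, Slfn4 and Slfn1, the second by 3.93 ± 0.60, and Slfn5 had a difference of -0.40 that was not called. Without WT SB 3 the Schlafen count was 4. With the lowest-mean probe sets, the adjusted p of Clec4e was 0.0601. The difference of Cxcl2 was unchanged in that fit, and its adjusted p was 0.0562.

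Of 15 tested alveolar macrophage markers, 0 rose and 1 fell, Car4, by -0.45 ± 0.08. Of 17 monocyte and macrophage markers, 2 rose and 3 fell, and the count of 5 was 2 without KO SB 3 and 3 without KO SB 2, KO VILI 1 or KO VILI 2, and 8 without WT SB 3. Among them Apoe, a lipid carrier of macrophages, changed by -0.55 ± 0.13 and Lgals3, a galectin of macrophages and epithelium, by 0.50 ± 0.10. Of 17 T and NK cell markers 2 rose (11.8%, against 8.12% of all genes). The count was 1 without WT SB 1, WT VILI 1, KO SB 2 or 3, or KO VILI 2 or 3. Cd28, the co-stimulatory receptor of T cells, had 7.40, 6.49 and 7.50 in knockout VILI lungs, against 6.03, 5.60 and 5.62 in knockout SB lungs. None of 14 B and plasma cell markers, 13 MHC class II presentation genes or 4 erythroid genes was called by limma, although 3 B and plasma cell markers were called without WT SB 3 and 1 without KO SB 1. The largest B cell difference that was not called was that of Pou2af1, with 8.37, 8.30 and 7.99 in knockout VILI lungs and 7.24, 6.97 and 5.24 in knockout SB lungs (adjusted p = 0.0621). The lowest-mean probe set of Car4 had an adjusted p of 0.307.

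**Figure D2:**
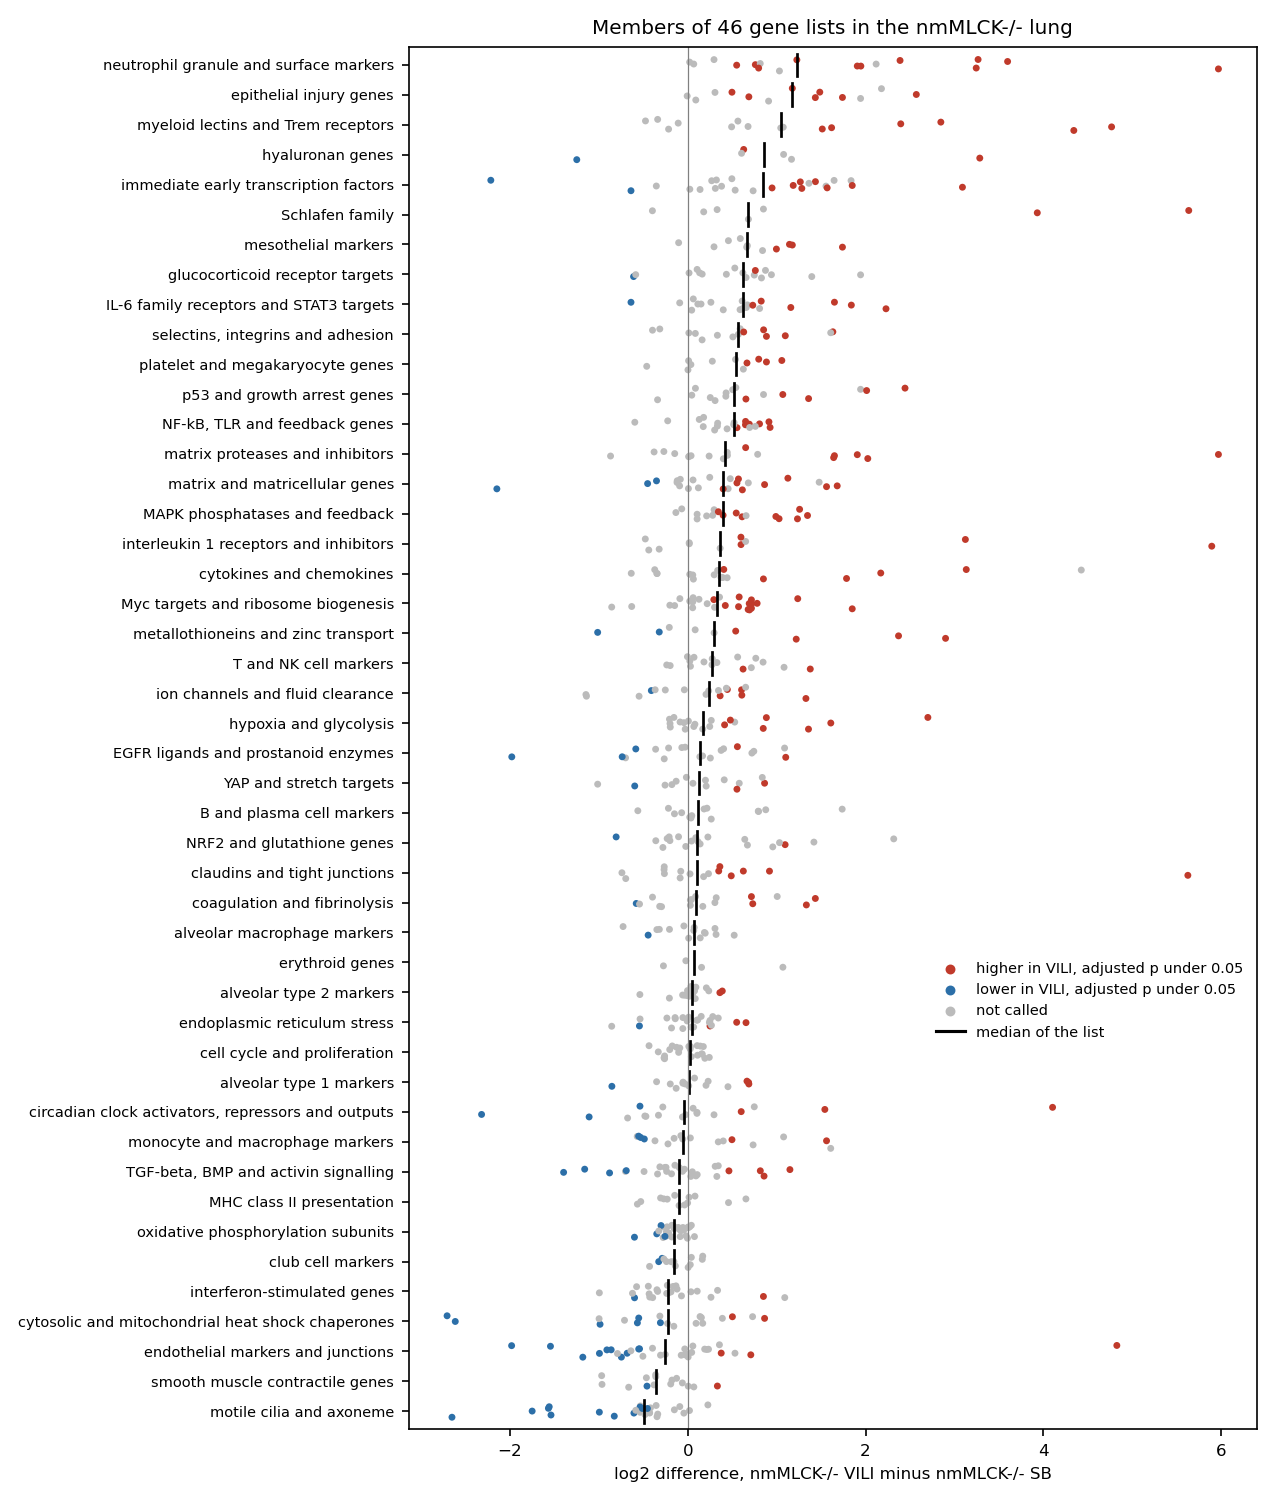
Log2 difference of each tested member of 46 gene lists, knockout VILI minus knockout SB, with 1 point per gene, red for rises and blue for falls with an adjusted p under 0.05, grey for genes not called and a black bar for the list median. The lists run from neutrophil markers at the top, median 1.23, to motile cilia genes at the bottom, median -0.50.

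Of 28 listed cytokines and chemokines 18 passed the filter, and 5 of these rose and 0 fell, and only Cxcl10 kept its call in all 12 fits. The count was 2 without KO SB 1, KO SB 2 or KO VILI 1, and 3 without WT SB 1, WT VILI 3 or KO VILI 3. Cxcl10, a ligand for receptors of activated T cells, had 6.52, 6.58 and 6.73 in knockout VILI lungs, against 5.97, 5.55 and 5.76 in knockout SB lungs, a rise of 0.85 ± 0.19 (adjusted p = 0.0126). Il1b, the inflammasome cytokine, had 10.50, 9.80 and 10.86 in knockout VILI lungs, against 7.09, 7.27 and 7.39 in knockout SB lungs, a rise of 3.13 ± 0.73, and its adjusted p of 0.0157 was 0.052 without KO VILI 3. Il6 was not called: its signals were 8.96, 8.32 and 2.25 in knockout VILI lungs and 2.07, 2.09 and 2.10 in knockout SB lungs (adjusted p = 0.052). KO VILI 3 was at the knockout SB level for Il6, and without it the adjusted p was 0.00103.

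Of 20 tested receptors of the interleukin 6 family and STAT3 targets, 6 rose, 1 fell and 13 were not called. Socs3, the feedback inhibitor of gp130 signalling, had 12.96, 13.04 and 12.65 in knockout VILI lungs, against 11.04, 10.93 and 11.18 in knockout SB lungs, a rise of 1.84 ± 0.18 (adjusted p = 0.000353). Pim1, a kinase induced by STAT factors, rose by 1.16 ± 0.18 and Timp1, an inhibitor of metalloproteinases, by 1.65 ± 0.35, while Lifr, a receptor subunit of the same family, changed by -0.64 ± 0.11. Interleukin 1 family genes included Il18rap, the accessory chain of the interleukin 18 receptor, with 9.07, 8.64 and 9.31 in knockout VILI lungs and 6.40, 5.58 and 5.67 in knockout SB lungs (3.12 ± 0.34, adjusted p = 0.000568). The interleukin 1 list had 4 rises among 11 tested genes, with 2 called without KO SB 2, KO VILI 1 or KO VILI 2. Of 20 NF-kB and Toll-like receptor genes, 7 rose and 0 fell. They included the subunits Rela (0.55 ± 0.09), Relb (0.69 ± 0.15) and Nfkb2 (0.81 ± 0.18), the adaptor Myd88 (0.65 ± 0.12) and the nuclear inhibitor Nfkbiz (0.65 ± 0.14). The cytosolic inhibitor Nfkbia, an early NF-kB target, had a difference of 0.13 that was not called. Adjusted p with the lowest-mean probe sets was 0.986 for Lifr and 0.199 for Nfkb2.

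Immediate early genes mostly had positive differences, though many were not called. Of 24 tested transcription factors of this class, 21 had positive and 3 negative differences, with a median of 0.84. Among them 8 rose and 2 fell, and the count of 10 was 6 without KO VILI 1 or 2. Myc had log2 signals of 8.79, 8.63 and 7.92 in knockout VILI lungs, against 7.19, 5.67 and 6.93 in knockout SB lungs, a rise of 1.85 ± 0.38 (adjusted p = 0.00966). Fosl2, an AP-1 subunit, rose by 1.27 ± 0.25, Mafk, a small Maf protein, by 0.95 ± 0.12 and Srf, the serum response factor, by 1.28 ± 0.21. Fos and Jun had differences of 0.32 and 0.14 that were not called, and Egr1 had 13.18, 12.85 and 12.44 in knockout VILI lungs and 11.84, 10.81 and 11.73 in knockout SB lungs (1.36 ± 0.69, adjusted p = 0.177). The falls in this list were Klf2 and Klf4, described with the endothelial genes. Among 17 phosphatases and feedback inhibitors of MAP kinases, 9 rose and 0 fell, with 6 called without KO SB 2, KO VILI 1 or KO VILI 2. Dusp16, a phosphatase of the stress kinases, had 11.83, 11.79 and 11.62 in knockout VILI lungs, against 10.84, 10.70 and 10.73 in knockout SB lungs (0.99 ± 0.09, adjusted p = 0.0002). Spry4, an inhibitor of receptor tyrosine kinase signalling, rose by 1.35 ± 0.19 and Dusp8 by 1.23 ± 0.27, and Dusp1 had a difference of 0.10 that was not called. Adjusted p with the lowest-mean probe sets was 0.227 for Srf, 0.447 for Dusp8 and 0.696 for Spry4.

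Of 26 tested Myc targets and nucleolar genes of ribosome biogenesis, 13 rose (50.0%, against 8.12% of all genes), 0 fell and 13 were not called, with a median of 0.33, and 10 kept the call in all 12 fits. Gnl3, a nucleolar GTPase, had 11.16, 11.10 and 11.08 in knockout VILI lungs, against 10.49, 10.14 and 10.37 in knockout SB lungs (0.78 ± 0.09, adjusted p = 0.000955). Odc1, the first enzyme of polyamine synthesis, rose by 0.72 ± 0.10, the ribosome assembly genes Ppan by 0.72 ± 0.11 and Rrs1 by 0.57 ± 0.10, and the small nucleolar ribonucleoprotein gene Gar1 by 0.58 ± 0.09. None of 22 cell cycle genes was called by limma in either direction, with Mki67 at 0.16 and Top2a at 0.03, and 1 was called without KO SB 1 or without KO VILI 1. Of 16 p53 and growth arrest genes 5 rose. That count varied with the arrays included, with 1 called without KO VILI 1 or 2 and 3 without KO SB 1 or 2. Gadd45g, a growth arrest gene, had 12.45, 12.34 and 12.09 in knockout VILI lungs, against 10.67, 8.80 and 10.09 in knockout SB lungs (2.44 ± 0.52, adjusted p = 0.0107). Of 30 subunits of oxidative phosphorylation 0 rose and 4 fell (13.3%, near the 12.6% of all genes), with a median of -0.16. The count was 1 without KO SB 2, KO VILI 2 or KO VILI 3 and 2 without KO SB 1 or 3.

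Of 13 tested epithelial injury genes, 7 rose and 0 fell, with a median of 1.18, and all 7 kept the call in the 12 fits. Krt8, a keratin of simple epithelia that marks transitional alveolar cells after injury, had 14.13, 13.97 and 13.82 in knockout VILI lungs, against 12.44, 12.00 and 12.25 in knockout SB lungs, a rise of 1.74 ± 0.20 (adjusted p = 0.000914). Its partner Krt18 rose by 1.49 ± 0.20, Krt19 by 1.18 ± 0.14 and Krt7 by 0.69 ± 0.09. Itgb6, the epithelial integrin subunit that activates latent TGF-beta, had 9.74, 10.01 and 9.72 in knockout VILI lungs, against 7.83, 6.78 and 7.15 in knockout SB lungs (2.57 ± 0.22, adjusted p = 0.0002). Krt8 and Krt19 are also mesothelial genes. In the mesothelial list 4 of 11 rose, among them Msln, mesothelin, with 9.91, 10.03 and 10.25 in knockout VILI lungs and 8.74, 9.21 and 8.81 in knockout SB lungs (1.14 ± 0.22, adjusted p = 0.00689). The mesothelial count was 8 without KO SB 2. The part of mesothelial cells in the keratin values was not tested.

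Among 16 tested tight junction genes, 6 rose and 0 fell, with 3 called without KO VILI 2. Cldn4, the claudin known to rise in ventilated lung and to limit leak across the epithelium, had 11.68, 11.31 and 10.33 in knockout VILI lungs, against 8.06, 3.15 and 5.23 in knockout SB lungs, a difference of 5.63 ± 1.40 (adjusted p = 0.0205). The adjusted p of Cldn4 was 0.0736 or 0.053 when replicate 2 or 3 of the knockout SB group was left out, and 0.0637 or 0.0649 when replicate 1 or 2 of the knockout VILI group was. The groups did not overlap, and the 3 knockout SB values were far apart. Cldn7 was even, with 11.67, 11.72 and 11.64 in knockout VILI lungs and 10.64, 10.78 and 10.86 in knockout SB lungs (0.92 ± 0.13, adjusted p = 0.00197), and Cldn3 rose by 0.49 ± 0.11. Cldn18, the main alveolar claudin, had a difference of 0.03 and Tjp1 one of -0.09, neither called. The lowest-mean probe set of Cldn3 had an adjusted p of 0.521.

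Of 15 alveolar type 1 markers 3 rose and 1 fell. Pdpn, podoplanin, had 13.31, 13.25 and 13.25 in knockout VILI lungs, against 12.64, 12.42 and 12.70 in knockout SB lungs (0.68 ± 0.09, adjusted p = 0.00175), and Gprc5a rose by 0.67 ± 0.11, while Ager, the most abundant marker of the type, had a difference of 0.01. Of 17 alveolar type 2 markers 2 rose (11.8%, against 8.12% of all genes), Sftpd and Muc1, by 0.36 and 0.39. None was called without KO VILI 2 or 3 and 1 without KO SB 2 or 3. The adjusted p of Sftpd lay between 0.0508 and 0.0592 without KO SB 1 or 2 or KO VILI 2 or 3, and that of Muc1 between 0.0532 and 0.0692 without KO SB 3 or KO VILI 2 or 3. Sftpc, Sftpb, Abca3 and Lyz2 were not called. Of 13 club cell markers 0 rose and 2 fell (15.4%, against 12.6% of all genes), with Scgb1a1 differing by 0.03. There was no call without KO SB 2 or 3 or any 1 of the knockout VILI arrays. There was 1 call without WT SB 2 or any 1 of the wild-type VILI arrays. Among 17 ion channel and fluid clearance genes 5 rose and 1 fell. That count fell to 1 without KO SB 3, 2 without KO SB 2, KO VILI 1 or KO VILI 3, and 3 without KO VILI 2, and stood at 9 without WT SB 3. Scnn1g, a subunit of the epithelial sodium channel, had 12.18, 12.02 and 12.21 in knockout VILI lungs, against 11.61, 11.29 and 11.68 in knockout SB lungs, with an adjusted p of 0.0156 that was 0.0554 without KO SB 2.

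Of 26 tested genes of the motile cilium and its assembly, 11 fell (42.3%, against 12.6% of all genes), 0 rose and 15 were not called, with a median of -0.50. The count was 6 without KO SB 2 or KO VILI 1 and 7 without KO VILI 2. Tekt4, a tektin of the axonemal microtubules, had 3.54, 3.22 and 3.42 in knockout VILI lungs, against 6.19, 6.22 and 5.72 in knockout SB lungs, a change of -2.65 ± 0.23 (adjusted p = 0.0002). Zmynd10, which assembles dynein arms, had 4.43, 5.24 and 4.87 in knockout VILI lungs, against 6.32, 7.12 and 6.35 in knockout SB lungs (-1.75 ± 0.37, adjusted p = 0.0111). Rsph4a, a radial spoke gene, changed by -1.57 ± 0.26, Lrrc6 by -1.56 ± 0.21 and Spag16 by -0.99 ± 0.14. Foxj1, the master regulator of motile cilia, had 6.45, 7.22 and 8.46 in knockout VILI lungs and 8.87, 9.07 and 8.81 in knockout SB lungs. Its change of -1.54 ± 0.43 had an adjusted p of 0.0303, which lay between 0.0564 and 0.0932 without any 1 of KO SB 1, 2 and 3 and KO VILI 1 and 2. The dynein heavy chains Dnah5, Dnah9 and Dnah11, at -0.53, -0.09 and 0.02, were not called.

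Endothelial genes moved in both directions, with falls more frequent. Of 31 tested markers and junction genes, 10 fell and 3 rose, and 10 of the 13 kept the call in all 12 fits. Klf2, a transcription factor that laminar shear induces in endothelium, had 11.16, 11.22 and 11.56 in knockout VILI lungs, against 13.43, 13.44 and 13.72 in knockout SB lungs, a change of -2.22 ± 0.15 or 4.65-fold lower (adjusted p = 5.78e-05). Klf4 changed by -0.64 ± 0.12 and Thbd, thrombomodulin, by -0.58 ± 0.09. Sox18, a factor of vascular development, had 9.26, 9.41 and 9.79 in knockout VILI lungs, against 11.22, 11.82 and 11.36 in knockout SB lungs (-1.98 ± 0.29, adjusted p = 0.00229), and Sox17 changed by -1.18 ± 0.26. Among junction and barrier genes, Jam2 changed by -0.99 ± 0.12, Jam3 by -1.54 ± 0.32 and Angpt1, the Tie2 ligand that stabilises vessels, by -0.91 ± 0.11. In the other direction, the claudin Cldn5 rose by 0.38 ± 0.12 (adjusted p = 0.0463), and Esam at 0.23 was not called. Without any 1 of the knockout arrays or the wild-type VILI arrays, the adjusted p of Cldn5 lay between 0.055 and 0.156. Ramp2, part of the adrenomedullin receptor, changed by -0.68 ± 0.12, Eng by -0.55 ± 0.10 and Egfl7 by -0.54 ± 0.10. General endothelial genes were mixed. Tek, the Tie2 receptor of Angpt1, changed by -0.75 ± 0.18, with an adjusted p of 0.02 that was 0.073 without KO SB 2 and 0.0583 without KO VILI 3. Pecam1 at -0.40, Cdh5 at 0.53, Kdr and Tie1 at 0.00 and Vwf at 0.06 were not called. With the lowest-mean probe sets, the adjusted p was 0.0811 for Egfl7 and 0.23 for Eng.

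The endothelial rises included Apold1, an early response gene of endothelial cells, with 10.68, 10.29 and 9.42 in knockout VILI lungs and 6.22, 4.29 and 5.40 in knockout SB lungs (4.83 ± 0.51, adjusted p = 0.000475). Robo4, a receptor that stabilises vessels, rose by 0.71 ± 0.09. In the TGF-beta, BMP and activin list of 27 genes, 4 rose and 4 fell, and the count was 5 without KO VILI 1. Among the falls Acvrl1, the endothelial BMP receptor ALK1, changed by -0.88 ± 0.16, the inhibitory Smad6 by -1.40 ± 0.18 and the target Id1 by -1.16 ± 0.20. Smad1, which carries BMP signals, rose by 0.82 ± 0.11, and Inhbb, an activin subunit, rose as well (1.15 ± 0.19, adjusted p = 0.00377). Of 15 selectins, integrins and adhesion genes 5 rose and only Cd44, the hyaluronan receptor, by 0.63 ± 0.09, kept its call in all 12 fits. The count of that list was 1 without KO SB 3, 2 without KO SB 2 or KO VILI 3, 3 without KO SB 1, KO VILI 1, KO VILI 2 or WT VILI 2, and 9 without WT SB 3. Icam1 and Vcam1 had differences of 0.33 and 0.09 that were not called. With the lowest-mean probe sets, the adjusted p was 0.671 for Acvrl1, 0.995 for Inhbb and 0.908 for Cd44.

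Matrix genes and their proteases rose in part. Of 23 matrix and matricellular genes 8 rose and 3 fell, a count that was 4 without KO SB 2, 5 without KO VILI 2 and 6 without KO SB 3, KO VILI 1 or KO VILI 3. Col1a1 had 11.42, 11.30 and 11.56 in knockout VILI lungs, against 10.33, 10.24 and 10.34 in knockout SB lungs (1.13 ± 0.15, adjusted p = 0.00176). Tnc, tenascin C, rose by 1.68 ± 0.32, and Lum, lumican, had 6.15, 5.80 and 4.65 in knockout VILI lungs, against 8.02, 7.59 and 7.42 in knockout SB lungs (-2.15 ± 0.42, adjusted p = 0.00804). Of 18 matrix proteases and inhibitors 6 rose and 0 fell, among them Adamts9 by 2.02 ± 0.29 and Adam8 by 1.64 ± 0.22, in addition to Mmp8 and Timp1. Has1, a hyaluronan synthase, had 7.65, 6.95 and 5.01 in knockout VILI lungs, against 2.51, 4.09 and 3.16 in knockout SB lungs (3.29 ± 0.58, adjusted p = 0.00529), and Hyal2, a hyaluronidase, changed by -1.25 ± 0.15. Plaur, the urokinase receptor, rose by 1.44 ± 0.17 in a coagulation list of 17 with 4 rises and 1 fall, where 2 were called without KO VILI 3, 3 without KO SB 2, KO SB 3 or KO VILI 2, and 8 without WT SB 3. The lowest-mean probe set of Adamts9 had an adjusted p of 0.0756.

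Circadian genes changed in both directions in animals kept on a 12 h light cycle, and the labels do not give the hour of collection. Of 18 tested genes 3 rose and 3 fell, with 3 called without KO SB 2 or KO VILI 1. Dbp, an output factor of the clock, had 10.30, 10.46 and 10.57 in knockout VILI lungs, against 12.57, 13.25 and 12.48 in knockout SB lungs (-2.32 ± 0.30, adjusted p = 0.00139). Nfil3, which binds the same D-box elements as Dbp and represses them, had 8.36, 8.25 and 7.49 in knockout VILI lungs, against 4.69, 2.57 and 4.52 in knockout SB lungs (4.10 ± 0.54, adjusted p = 0.00147). Arntl, the activator also called Bmal1, had 6.10, 5.24 and 5.77 in knockout VILI lungs, against 4.43, 3.60 and 4.46 in knockout SB lungs. Its rise of 1.54 ± 0.36 had an adjusted p of 0.016, which came to 0.0579 with KO VILI 1 left out and 0.0585 with the second knockout SB array left out. Clock, Cry2 and Nr1d1 had differences between -0.02 and 0.10 that were not called. Dio2, the deiodinase that activates thyroid hormone in tissues, had 7.31, 7.36 and 7.03 in knockout VILI lungs, against 4.34, 2.83 and 3.62 in knockout SB lungs (3.64 ± 0.31 or 12.4-fold, adjusted p = 0.0002).

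Of 19 tested cytosolic and mitochondrial chaperone genes, 6 fell, 2 rose and 11 were not called, and the count of 8 was 3 without KO VILI 1 or 2, 4 without KO SB 3 or KO VILI 3 and 5 without KO SB 1 or 2. Hspa1b, an inducible Hsp70, had 10.88, 10.55 and 11.05 in knockout VILI lungs, against 14.31, 11.82 and 14.48 in knockout SB lungs (-2.71 ± 0.58, adjusted p = 0.0109). Its neighbour Hspa1a had 7.57, 7.54 and 7.64 in knockout VILI lungs, against 11.10, 8.57 and 10.94 in knockout SB lungs (-2.62 ± 0.66, adjusted p = 0.0214). The 2 genes encode nearly the same protein, and probe sets may share signal. Without any 1 of KO SB 1 and 3 and the 3 knockout VILI arrays, the adjusted p of Hspa1a lay between 0.054 and 0.066. Hspe1, the mitochondrial co-chaperone, changed by -0.55 ± 0.10, and Dnajb5 rose by 0.86 ± 0.11, with an adjusted p of 0.779 for its lowest-mean probe set. Of 24 endoplasmic reticulum stress genes 3 rose and 1 fell (16.7% called, against 20.7% of all genes). Hyou1 rose by 0.66 ± 0.14, and Xbp1 and Herpud1 at 0.04 and 0.07 were not called.

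Metal and hypoxia genes rose in part. Mt1, a metallothionein that binds zinc, had 14.25, 14.30 and 14.19 in knockout VILI lungs, against 12.40, 10.94 and 12.28 in knockout SB lungs (2.37 ± 0.48, adjusted p = 0.00898). The zinc importer Slc39a14 rose by 1.22 ± 0.19 and Slc39a10 changed by -1.01 ± 0.15, in a list of 9 with 4 rises and 2 falls that fell to 4 called without KO SB 2 or 1 of the knockout VILI arrays. Of 21 hypoxia and glycolysis genes 7 rose and 0 fell, with 3 called without KO SB 2 or KO VILI 2 and 4 without KO SB 3, KO VILI 1 or KO VILI 3. Slc2a3, a glucose transporter of neurons and leukocytes, had 9.88, 9.69 and 10.49 in knockout VILI lungs, against 7.74, 6.77 and 7.45 in knockout SB lungs (2.70 ± 0.38, adjusted p = 0.00197). Hk2, hexokinase 2, rose by 1.61 ± 0.27 and Slc2a1 by 0.88 ± 0.16, whereas Vegfa, Ldha and Pgk1 had differences of -0.20, -0.16 and 0.07 that were not called. Gsr, glutathione reductase, rose by 1.10 ± 0.17 and Gsta3, a glutathione transferase, changed by -0.81 ± 0.14, the only calls among 20 NRF2 and glutathione genes. Adjusted p with the lowest-mean probe sets was 0.0554 for Gsr and 0.113 for Gsta3.

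Several lists had few calls or calls that varied with the arrays included. The share called was 8.33% of interferon-stimulated genes, 13.3% of smooth muscle genes and 21.4% of YAP and stretch targets. It was 26.3% of EGF receptor ligands and prostanoid enzymes, and 20.7% of all genes. Of 24 interferon-stimulated genes, 1 rose, Cxcl10, and 1 fell, with a median of -0.22, and 4 were called without WT SB 2 or 3 and 1 without KO SB 2 or KO VILI 3. Of 15 smooth muscle contractile genes 1 rose and 1 fell. Both calls held only without WT SB 3 among the 12 fits, with 1 call without WT SB 2, WT VILI 1, KO SB 2 or KO VILI 3 and 0 without any 1 of the other seven. Of 14 YAP and stretch targets 2 rose and 1 fell. The YAP count was 0 without KO SB 2 or KO VILI 2, 1 without KO SB 3 or KO VILI 1 or 3, 5 without WT SB 2 and 6 without WT SB 3. Of 19 EGF receptor ligands and prostanoid enzymes 2 rose and 3 fell, with Hbegf, an EGF receptor ligand, at 1.10 ± 0.20 and Pla2g4a, the phospholipase that frees arachidonic acid, at -0.74 ± 0.16. That count was 2 without KO SB 2 or KO VILI 1 or 2, 3 without KO SB 3 or KO VILI 3, and 8 without WT SB 3.

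KO SB 2 differed from the other knockout SB lungs in stress and hormone response genes, and glucocorticoid and p53 targets were also low on WT SB 3. The glucocorticoid list held 17 tested genes, the receptor gene Nr3c1 and targets. Its median, relative to each gene's mean of the 6 knockout arrays, was -1.14 on KO SB 2, against 0.16 and 0.20 on the other two knockout SB arrays. On the VILI side the list median was between 0.28 and 0.32. Fkbp5, a chaperone that glucocorticoids induce, had 12.99, 12.93 and 13.21 in knockout VILI lungs and 12.73, 9.47 and 12.74 in knockout SB lungs (1.40 ± 1.08, adjusted p = 0.376). Slc7a11, the cystine transporter that NRF2 induces, had 10.91, 11.02 and 10.40 in knockout VILI lungs and 9.88, 5.52 and 9.98 in knockout SB lungs. Cdkn1a, the p21 cell cycle inhibitor, had 13.30, 13.14 and 13.09 in knockout VILI lungs and 12.25, 9.12 and 12.32 in knockout SB lungs. None of these 3 was called. Of the 17 genes of the glucocorticoid list 1 rose and 1 fell (11.8% called, against 20.7% of all genes). The fall was that of Nr3c1, the receptor itself (-0.61 ± 0.14, adjusted p = 0.0131). The rise was that of Lcn2, also in the neutrophil list (0.76 ± 0.19, adjusted p = 0.0201). In the fits that lost it, the adjusted p of Lcn2 lay between 0.0534 and 0.0745. The count of the list was 1 without KO SB 2 or KO VILI 1 or 3. Without this array the list medians were 0.04 in place of 0.62 for glucocorticoid targets, 0.19 in place of 0.52 for p53 genes, 0.35 in place of 0.62 for STAT3 targets, 0.24 in place of 0.54 for platelet genes, 0.15 in place of 0.42 for matrix proteases and 0.25 in place of 0.40 for matrix genes. The part of this array's state in the other results was not tested beyond the values without it. Centred on each gene's mean of all 12 arrays, the glucocorticoid median was -1.12 on KO SB 2 and -0.65 on WT SB 3, against 0.12 to 0.41 on the other four SB arrays, and the p53 median was -1.01 and -0.95, against -0.11 to 0.05.

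**Figure D3:**
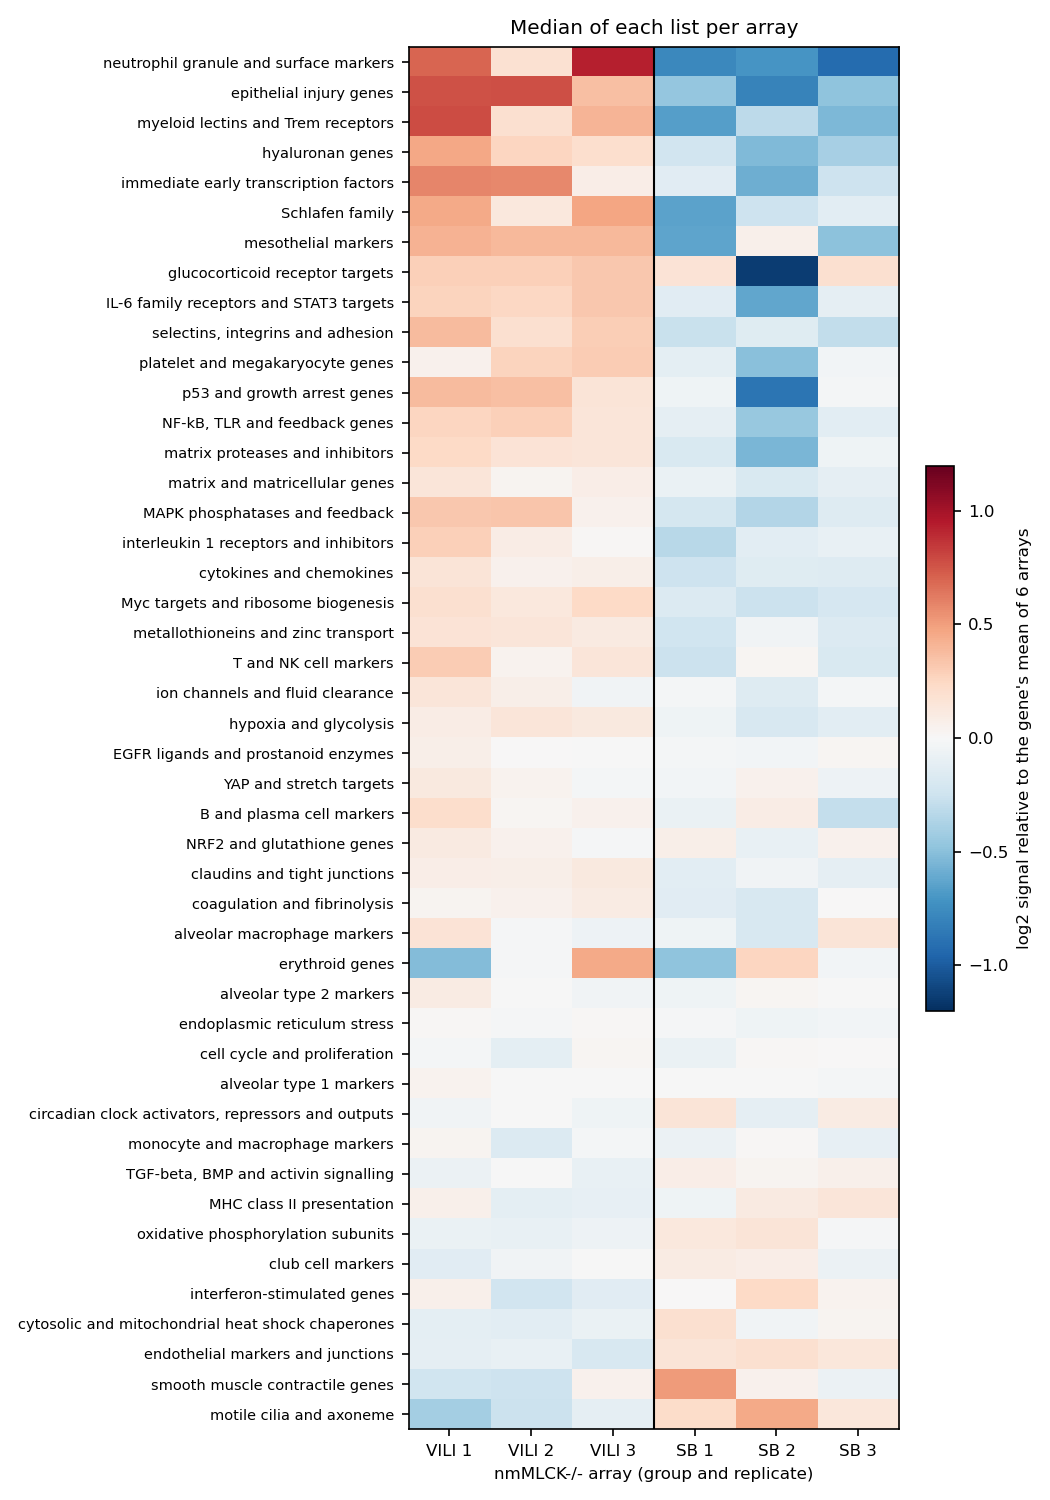
Median of each gene list on each knockout array, VILI replicates 1 to 3 left of SB replicates 1 to 3, as log2 signal relative to each gene's mean of the 6 arrays, red above and blue below it. Glucocorticoid receptor targets stand at -1.14 on SB replicate 2, against 0.16 and 0.20 on the other two SB arrays.

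The same test in wild-type lungs called 1892 genes (15.4%). Of the genes called in either genotype, 1245 were called in both, which is 48.7% of the knockout calls and 65.8% of the wild-type calls, and all 1245 changed in the same direction. Of the 2554 knockout calls, 2489 (97.5%) had the same sign in wild type. Across the 12309 genes the log2 differences of the genotypes correlated with a Pearson r of 0.83 and a Spearman rho of 0.79, given as a description, since genes are not independent replicates and both use the same array design. The knockout-only and wild-type-only calls, 1309 and 647 genes, do not show that responses differ, because that needs a test of the difference itself.

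The difference of responses, knockout VILI minus SB less wild-type VILI minus SB, was called by limma for 0 of 12309 genes (0%). At an unadjusted p under 0.05 stood 619 of the 12309 genes. With no difference in any gene, a share of about 0.05 would fall under that threshold. The median standard error of the difference of responses was 0.21. Without WT SB 3 the test called 6 genes, Sox11, Fank1, Wdfy1, Dzip1l, Rab4a and Cd59a, with adjusted p between 0.00182 and 0.0348, and no gene was called without any 1 of the other 11 arrays. The gene with the smallest p was Tbrg3, with 5.71, 5.76 and 5.81 in knockout VILI lungs and 4.84, 4.82 and 4.84 in knockout SB lungs. In wild type Tbrg3 had 4.83, 4.91 and 4.85 in VILI lungs and 4.83, 4.63 and 4.86 in SB lungs (difference 0.84 ± 0.11, adjusted p = 0.244). Pdpn, with the knockout values given above, had 12.73, 12.81 and 12.57 in wild-type VILI lungs and 12.81, 12.85 and 12.81 in wild-type SB lungs (difference 0.80 ± 0.13, adjusted p = 0.345). Clec1b, the platelet receptor of podoplanin, had 8.34, 8.34 and 8.43 in knockout VILI lungs and 7.78, 7.54 and 7.80 in knockout SB lungs, where it rose by 0.67 ± 0.14. In wild type it had 8.60, 8.49 and 8.07 in VILI lungs and 8.72, 8.84 and 8.91 in SB lungs (difference 1.11 ± 0.19, adjusted p = 0.345). Spin4 and Ikzf4, both among the 5 genes with the smallest p for it, had differences of -0.89 ± 0.14 and -0.74 ± 0.13, both at an adjusted p of 0.345.

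Neutrophil markers were high on 1 wild-type SB array. Over all 12 arrays, the list median, after each gene was centred on its mean, was 0.64, 0.19 and 0.97 in knockout VILI lungs, -0.89, -0.69 and -0.87 in knockout SB lungs, 0.33, 0.21 and 0.41 in wild-type VILI lungs and -0.75, -0.90 and 0.59 in wild-type SB lungs. WT SB 3 thus lay above all 3 wild-type VILI arrays. S100a8 had 14.27, 14.13 and 14.79 in wild-type VILI lungs and 11.91, 12.31 and 14.52 in wild-type SB lungs, and its difference of responses was 1.78 ± 0.77 (adjusted p = 0.971). Of the 17 neutrophil markers 11 were called in knockout and 1 in wild type, with medians of 1.23 and 0.60, and none was called for the difference. The part of this array in the larger knockout values was not tested. Of 11 platelet and megakaryocyte genes, 4 rose in knockout, with 2 called without KO SB 2 or KO VILI 3, and 0 were called in wild type. The platelet gene Gp1bb had 6.01, 6.22 and 6.17 in knockout VILI lungs, 5.28, 4.63 and 5.33 in knockout SB lungs, 6.28, 6.15 and 6.17 in wild-type VILI lungs and 6.46, 6.80 and 7.30 in wild-type SB lungs (difference 1.71 ± 0.31, adjusted p = 0.345). The knockout and wild-type VILI values of Gp1bb and Clec1b lay close together, and the genotypes stood further apart in the SB lungs.

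**Figure D4:**
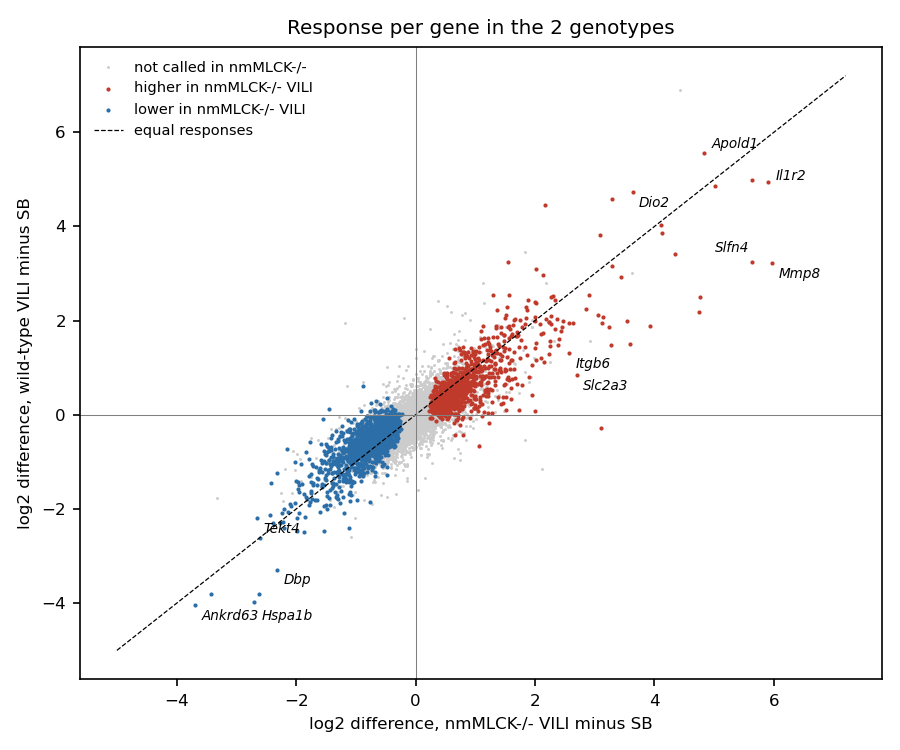
Log2 difference of each of the 12309 genes in knockout (horizontal axis) and in wild type (vertical axis), VILI minus SB, red and blue for genes that rose or fell in knockout and grey for the rest, with a dashed line of equal responses. The points follow the line with a Pearson r of 0.83, and Mmp8 lies at 5.97 in knockout and 3.22 in wild type.

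**Figure D5:**
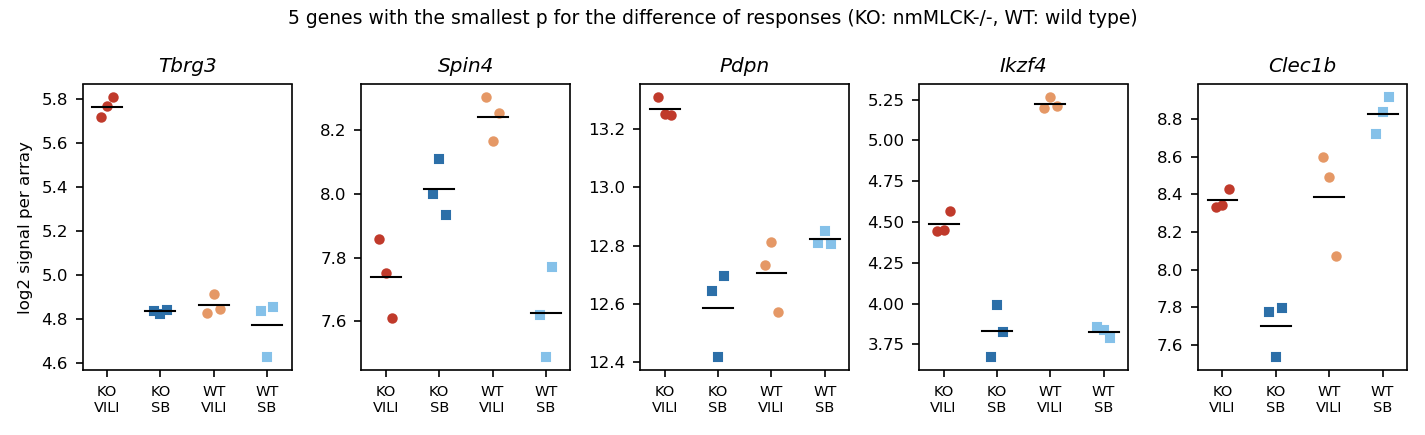
Log2 signal per array in the 4 groups, with bars at group means, for the 5 genes with the smallest p for the difference of responses, none of which had an adjusted p under 0.05. Tbrg3 lies between 5.71 and 5.81 in knockout VILI lungs and between 4.63 and 4.91 on the other 9 arrays.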

How the data were processed

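Total lung RNA of 12 mice in 4 groups of 3 was hybridised to 12 arrays. The files hold log2 signals as the authors deposited them, and the submitters' processing notes name MAS5 and GCRMA without a role or version, so which of them made the values is not stated. Precision is limited by the number of arrays. No further normalization was applied. Of 45037 probe sets, 34945 had 1 gene symbol, 932 several and 9160 none in the platform annotation, and 22443 of those with 1 symbol had a mean at or over the 40th percentile (3.056). The probe set with the highest mean stood for each of 12309 genes, and 5783 genes had more than 1.

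limma 3.58.1 in R 4.3.3 was fitted to 4 group means over 12 arrays, with Benjamini-Hochberg adjustment over all genes tested and a threshold of 0.05. The test was checked on 10 simulated sets of 12309 genes, with 200 genes changed in knockout VILI and independent normal noise. It recovered 72.6% of 2-fold changes in the knockout response and 52.8% in the difference of responses. Figures and promoter searches used Python 3.11.15, pandas 2.3.3 and matplotlib 3.10.9. The 46 gene lists, with 903 distinct symbols of which 763 were tested, and all members and tests were chosen with earlier results of these data known, and lists have counts and medians only. Named genes are the 12 largest rises and falls among called genes whose groups did not overlap and whose means passed the filter, the 8 smallest p in each direction, called list members with up to 3 others of large difference, Mylk, the 5 smallest p for the difference of responses and the 6 largest rises with an SB mean under the filter. Uncalled list members named with small differences, and Gp1bb, were chosen after their values were seen. Alternatives covered the filter, scaling, choice of probe set, test, array weights, a replicate block and leaving out each array.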

Additional observations from a re-analysis of the deposited data

How the results depend on the processing

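Against 2554 genes called, 999 higher, 1555 lower, 573 at least 2-fold and 0 for the difference of responses, array weights (estimated gene by gene, since the default method did not converge) gave 4017, 1575 and 2442, with 1 gene for the difference. A replicate block gave 1306, 569 and 737 and 0 for the difference. Same-numbered deviations gave no sign of pairing, with correlations of -0.174, -0.026 and -0.15 in knockout and -0.104, 0.015 and -0.026 in wild type. Other knockout pairs gave -0.037 to 0.17. With 3 arrays per group these values cannot show whether same-numbered samples shared a batch, which the labels do not give. A test against a change of 1.2-fold called 575, as its construction asks for more. The 60th percentile filter, which tests fewer genes, left 361 at least 2-fold, and testing without a filter called 1 gene for the difference. With each array left out in turn, called genes ranged from 1232 to 3301, higher from 494 to 1316, lower from 738 to 1985, those at least 2-fold from 392 to 680 and the difference from 0 to 6. The cause was not tested. The median of all genes was -0.02 with array medians set equal and -0.03 after quantile normalization, against -0.05. Of 189 named genes followed through the alternatives, none changed sign with an adjusted p under 0.05 in the main or the alternative fit. Sign changes of genes called in neither fit were not counted, and the 60th percentile filter left only part of the 189 to test. The setting that ended most of their calls was the probe set with the lowest mean, under which 22 lost the call, against 8 without KO SB 2, 7 without KO VILI 2 and 6 under the replicate block.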

Other observations

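Genes were also counted by the first letters of their symbols, over the 26 prefixes with at least 30 tested genes, a grouping chosen after results were seen and given without a test. Of 274 genes with the prefix Zfp, which names zinc finger proteins, 57 fell (20.8%) and 6 rose (2.19%) in knockout lungs, with a median of -0.20, and 35 fell and 11 rose in wild-type lungs. Of 33 genes with the prefix Cep, which names centrosomal proteins, 12 fell (36.4%) and 1 rose (3.03%) in knockout lungs, and 9 fell and 1 rose in wild-type lungs. Of 34 genes with the prefix Lrrc, which names leucine-rich repeat proteins, 12 fell (35.3%) and 4 rose (11.8%) in knockout lungs, and 11 fell and 4 rose in wild-type lungs. Of 30 genes with the prefix Cdc 7 fell (23.3%) and 0 rose in knockout lungs, and 4 fell and 0 rose in wild-type lungs. Of 36 with the prefix Ttc 8 fell (22.2%) and 2 rose in knockout lungs, and 13 fell and 1 rose in wild-type lungs. The prefixes named are those with the highest shares of falls in knockout lungs. Among all genes 12.6% fell and 8.12% rose in knockout lungs.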
